A study of Mus musculus with 32 samples.

Results

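The keratin genes were taken from the deposited counts as every row whose symbol reads *Krt* followed by a number and at most 1 letter. The rule found 54 of 55291 gene symbols and used no measured value. The 32 libraries were made from WT and *Dnase1l3*-KO mice, in which the DNase gene *Dnase1l3* is lacking in the whole body from conception onward. Colon was taken from 4 WT and 4 KO mice without treatment (D0, age not given in the sources used here), from 4 and 4 mice at day 19 (D19) and from 4 and 4 mice at day 80 (D80), and tumors came from 5 WT and 3 KO mice of the late stage. Treated mice, C57BL/6 and 3 months old at the start, received the carcinogen azoxymethane (AOM, 8 mg/kg) and then 2.5% dextran sulfate sodium (DSS), which injures the colon epithelium, in the drinking water. D19 followed 1 DSS cycle and 5 days of recovery, and D80 followed 3 cycles. The study asked how the loss of *Dnase1l3* alters recovery and tumor growth in this model, and its stages also show what happened to the keratins with injury and in tumors. The colon libraries hold total RNA of whole colon, with muscle, stroma and leukocytes counted beside the epithelium. In such bulk samples fewer cells of a type and less RNA per cell cannot be told apart.

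Keratins build the intermediate filaments of epithelial cells. A filament needs a type I (acidic) and a type II (basic) keratin, which pair, and the pair in use marks the kind of epithelium. *Krt8* and *Krt18*, with *Krt19* and *Krt20*, are the pairs of simple epithelia such as the colon. *Krt5* and *Krt14* belong to the basal layer of squamous epithelia, *Krt4* and *Krt13* to the upper layers of the wet ones, and *Krt6a*, *Krt6b*, *Krt16* and *Krt17* are induced in wounded skin. A further set of hard keratins builds hair, nails and the papillae of the tongue. Of the 54 genes, 27 lay on chromosome 11 of GRCm38 (99232761 to 100269871) and 27 on chromosome 15 (101347444 to 102032027), with 26 of type II and 28 of type I, *Krt18* being the type I gene on chromosome 15. They were grouped into simple epithelial (6), basal squamous (3), suprabasal and cornified squamous (11), stress and wound (4), hair, inner root sheath and companion layer (26) and other keratins (3), and *Krt88* was in no list.

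The RefSeq table of promoters (GRCm38.p6) held an entry for 36 of the 54 members. Shown here are the 250 bases before the start of 5 members on which the results turn, for the basal keratin *Krt5*, the upper-layer keratin *Krt13*, the hard keratins *Krt36* and *Krt84*, and the colonocyte keratin *Krt20*. All lie on the minus strand, at chr15:101712906-101713155 (*Krt5*), chr11:100121567-100121816 (*Krt13*), chr11:100105627-100105876 (*Krt36*), chr15:101532821-101533070 (*Krt84*) and chr11:99438154-99438403 (*Krt20*), and are written 5′ to 3′ along the gene. Capitals mark matches on either strand to 5 motifs, namely the letters TATAA of the promoter element that binds TBP, the letters TGANTCA for the factor AP-1, the letters GCCNNNGGC for AP-2, the letters TTTATG for the CDX homeobox factors and the letters GGGCGG for Sp1.
Krt5: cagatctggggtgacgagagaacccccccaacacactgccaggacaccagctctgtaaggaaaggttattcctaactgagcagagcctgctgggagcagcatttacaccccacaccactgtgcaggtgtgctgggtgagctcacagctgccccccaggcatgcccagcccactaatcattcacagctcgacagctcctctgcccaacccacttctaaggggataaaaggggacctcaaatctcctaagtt
Krt13: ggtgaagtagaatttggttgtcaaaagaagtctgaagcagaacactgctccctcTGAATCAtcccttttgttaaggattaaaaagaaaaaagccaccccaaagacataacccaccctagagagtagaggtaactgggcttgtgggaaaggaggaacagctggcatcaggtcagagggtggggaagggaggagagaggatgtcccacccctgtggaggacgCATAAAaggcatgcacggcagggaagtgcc
Krt36: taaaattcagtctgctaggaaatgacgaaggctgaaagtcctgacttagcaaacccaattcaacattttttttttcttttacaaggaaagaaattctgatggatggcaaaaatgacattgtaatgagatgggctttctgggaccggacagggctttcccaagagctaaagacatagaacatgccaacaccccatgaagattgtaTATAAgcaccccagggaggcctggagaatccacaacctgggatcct
Krt84: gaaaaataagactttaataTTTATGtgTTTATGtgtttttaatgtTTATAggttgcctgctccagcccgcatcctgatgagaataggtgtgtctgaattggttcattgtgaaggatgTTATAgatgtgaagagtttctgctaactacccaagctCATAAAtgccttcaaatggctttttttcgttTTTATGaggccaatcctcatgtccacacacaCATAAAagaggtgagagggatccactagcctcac
Krt20: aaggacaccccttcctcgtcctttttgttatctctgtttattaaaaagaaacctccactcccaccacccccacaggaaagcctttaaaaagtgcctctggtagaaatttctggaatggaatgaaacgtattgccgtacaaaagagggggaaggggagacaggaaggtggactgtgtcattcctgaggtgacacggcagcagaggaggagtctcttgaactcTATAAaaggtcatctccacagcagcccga

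The windows differed in their matches, and no match shown shared a base with another. *Krt20* held TATAA 29 to 25 bases before the start and *Krt36* 46 to 42 bases before it. *Krt84* held 5 matches to TTTATG and 2 to TATAA on the opposite strand, *Krt13* held 1 match to TGANTCA and 1 to TTTATG, and none of the 5 motifs was found in the *Krt5* window. Over 32851 promoter windows of this length, 22.8% held TATAA, 6.75% TGANTCA, 13.7% GCCNNNGGC, 10.8% TTTATG and 32.7% GGGCGG, and of the 37 entries of keratins 24, 2, 5, 16 and 2 did. A match describes these letters and no more.

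The deposited values are raw counts per gene, 18951121 to 47623288 per library (median 34333251). Levels are given as CPM, counts scaled to library size with TMM factors over all libraries, and differences were tested with edgeR's quasi-likelihood test on the groups compared. Only genes with enough counts in enough of the libraries compared were tested. A keratin near 0 in D0 or D80 colon was thus tested only where the group compared with it was high. This favors rises in counts and medians over the keratins tested. A gene is called higher or lower where its level differed more than 2-fold with a Benjamini-Hochberg adjusted p below 0.05. Between KO and WT tumors the unadjusted p had to lie below 0.01 instead, and both thresholds are those of the study. Each library of a group came from another mouse. *Dnase1l3* counts ranged from 7.29 to 8.84 CPM in WT and from 0.675 to 6.79 in KO colon at D19 and overlapped between genotypes elsewhere, and since the deleted part of the gene is not named in the sources used here, these whole-gene counts cannot check the genotype labels. *Epcam*, which marks epithelium, stood at 1074 to 1714 CPM in all 32 libraries. KO D19 mouse 811, WT D80 mouse 581 and the tumor of KO mouse 544 differed from their groups in library make-up. They had 8.02% to 15.1% of counts from mitochondrial genes and 7.56% to 12.4% from ribosomal protein genes. A keratin result that rests on any of them is given without it, while counts of partner and marker genes include them.

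Keratins took 0.389% to 1.33% of all counts in a library, and 27 to 42 members had a count in it. No member lacked counts in every library, but 11 had fewer than 10 counts in the 32 libraries together. Colon expressed few keratins and tumors many: 5 to 8 members had a mean of 10 CPM or more in the 6 colon groups, against 19 in WT and 17 in KO tumors. The 28 members that reached 10 CPM in a group or were called in a comparison are described below. The highest group mean among the other 26 was 4.37 CPM (*Krt80*), and 14 members stayed under 0.1 CPM in every group.

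**Figure D1:**
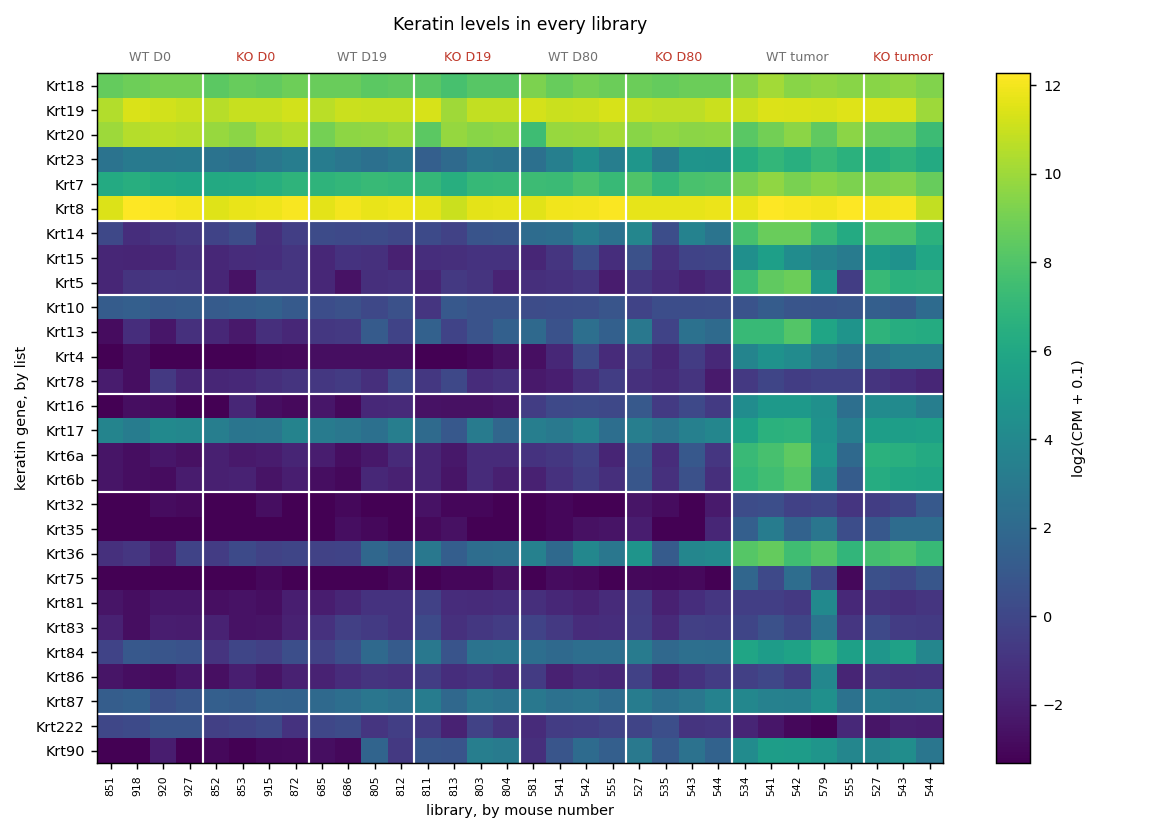
Level of the 28 described keratins (rows, ordered by list) in each of the 32 libraries (columns, ordered by group), as log2(CPM + 0.1) on the color scale. The simple keratins are bright in every column, and the squamous, stress and hair keratins brighten mainly in the 8 tumor columns.

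Untreated colon held the simple keratins almost alone. Per kilobase of exon, the scale on which genes can be compared, *Krt8* led at 2070 CPM per kb in WT colon (SD 458, n = 4), followed by *Krt19* (1140), *Krt20* (719) and *Krt18* (325), and the ranges of *Krt20* and *Krt18* did not overlap while those of *Krt8* and *Krt19*, and of *Krt19* and *Krt20*, did. *Krt7*, a simple keratin of ducts, stood far below at 10.4 CPM per kb, with the stress keratin *Krt17* at 8.73 in an overlapping range. The order of the leading 5 was the same in KO colon (1850, 1070, 557, 269 and 12.2 CPM per kb). Simple keratins made up 99.6% of the summed keratin CPM in WT and 99.7% in KO colon at D0. Type I and type II sums were close, with a ratio of type I to type II of 0.901 to 1.12 over the 8 groups, although the partners *Krt18* and *Krt8* themselves were not, *Krt18* reaching 0.130 to 0.173 of *Krt8* per kb in colon and 0.258 and 0.293 in WT and KO tumors.

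After 1 DSS cycle (D19 against D0), a small set of hair, nail and upper-layer squamous keratins rose from a very low level in both genotypes while the abundant simple keratins did not pass the threshold. In WT colon 4 of 18 keratins tested were called higher (*Krt13*, *Krt36*, *Krt83*, *Krt87*) and 0 lower, where 9.33% of all 18570 genes tested were called higher and 4.04% lower. In KO colon the same 4 and *Krt81*, *Krt84*, *Krt86* and *Krt90*, 8 of 22, were called higher and 0 lower, where 8.95% of 19191 genes were higher and 2.52% lower. Of the hair, inner root sheath and companion layer list, 3 of 4 tested members rose in WT and 6 of 6 in KO colon, and 1 of 3 suprabasal members rose in each. The other hair-list members, 22 of 26 in WT and 20 of 26 in KO colon, were too low to be tested. In WT colon these included *Krt81* and *Krt86*. The median log2 fold change was -0.18 over the keratins tested in WT (0.00 over all genes) and 0.62 in KO colon (0.03 over all genes). Both D80 comparisons below use the same D0 libraries.

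*Krt36*, a hard keratin of type I known from nails and the tongue, stood at 0.349, 0.454, 0.179 and 0.781 CPM in WT colon at D0 and at 0.745, 0.765, 3.65 and 2.13 at D19. In KO colon it stood at 0.585, 1.05, 0.751 and 0.847 at D0 and at 7.49, 2.39, 4.57 and 4.98 at D19. The KO groups were apart, while in WT 2 of the D19 libraries lay within the D0 range. The log2 fold change came to 1.96 for WT (SE 0.59, adjusted p = 0.0205) and to 2.57 for KO colon (SE 0.37, adjusted p = 0.00138). The WT call was lost without D0 mouse 851 (1.85), D0 mouse 920 (1.70) or D19 mouse 805 (1.39). *Krt84*, the type II hard keratin found with it in the tongue, ranged from 0.399 to 1.23 CPM at D0 and stood at 7.49, 1.54, 6.05 and 6.52 at D19 in KO colon (log2 fold change 2.75, SE 0.51). In WT colon *Krt84* was at 0.786 to 1.87 and then at 0.745 to 3.85 CPM, overlapping ranges that passed no threshold.

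*Krt13*, the type I keratin of upper layers in wet squamous epithelia, moved with them. Its WT levels were 0.0437, 0.303, 0.0896 and 0.344 CPM at D0 and 0.465, 0.502, 2.10 and 0.789 at D19, and its KO levels 0.239, 0.108, 0.337 and 0.234 and then 2.73, 0.761, 1.5 and 2.66. The groups did not overlap in either genotype (log2 fold change 2.21 in WT with an SE of 0.66, and 2.98 in KO colon with an SE of 0.50), but the WT call was lost without D0 mouse 851 (1.89) or 920 (1.98). *Krt83* and *Krt87*, hair keratins of type II, were higher by 1.93 (SE 0.39) and 1.39 (SE 0.25) in log2 units in WT, and by 2.17 (SE 0.50) and 1.26 (SE 0.29) in KO colon. In KO colon *Krt81* (2.21) and *Krt86* (1.78), type II keratins of the hair cortex, were also called, at mean levels of 0.396 and 0.397 CPM. Neither was tested with edgeR in WT colon, where their ranges were apart as well. There *Krt81* went from 0.0505 to 0.0937 CPM at D0 to 0.140 to 0.383 at D19. *Krt86* went from 0.0448 to 0.0937 CPM to 0.186 to 0.405, and DESeq2 called it higher in WT colon. Without KO D0 mouse 852, 853 or 915 the count fell from 8 to 5, 4 and 5, as *Krt81* and *Krt86* and, in part, *Krt83* and *Krt87* dropped out, and *Krt86* was also lost without KO D19 mouse 803 (1.79) or 804 (1.91). With all 32 libraries in a common fit the edgeR calls of *Krt13* (adjusted p = 0.0596) and *Krt83* (0.0642) in WT and of *Krt81* (0.167) and *Krt86* (0.239) in KO colon were lost. *Krt81*, *Krt86* and *Krt87* also share 35.5%, 33.5% and 22.4% of their 75-nt windows with other genes, so counts may be split between them.

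*Krt90*, a type II keratin of rodents, varied widely between mice at D19. In WT colon it was at 0, 0, 0.134 and 0 CPM at D0 and at 0.0465, 0.0239, 3.11 and 0.502 at D19, too few to be tested. In KO colon it was at 0.0266, 0, 0.0259 and 0.0292 and rose to 1.72, 1.52, 10.02 and 8.96 at D19, each D19 library lying above each D0 library. The sums were 1000 counts at D19 and 3 at D0, a depth-scaled ratio of 270 with a 95% counting interval of 92.2 to 1310, and edgeR's adjusted p was 0.000508. Counting intervals cover counting error only.

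Among the simple keratins at D19, *Krt7* stood at 114, 127, 148 and 134 CPM in WT colon against 74.5, 88.2, 69.6 and 62.3 at D0, and *Krt20*, the keratin of mature surface colonocytes, at 512, 786, 804 and 977 against 1002, 1497, 1587 and 1455. The WT groups did not overlap for either gene, with changes under 2-fold. In KO colon they overlapped for both, with *Krt7* at 86.7 to 147 CPM against 70.2 to 114 and *Krt20* at 325 to 883 against 760 to 1408. *Krt8* ranged from 2081 to 4072 CPM over both genotypes at D19 and from 2778 to 4751 at D0. Of the basal and stress keratins none was called at D19 in either genotype.

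At D80, after 3 DSS cycles, the hard keratins *Krt36*, *Krt84* and *Krt87* and the upper-layer keratin *Krt13* were higher than at D0 in both genotypes, and so were the basal keratin *Krt14* and the wound keratin *Krt16*. D80 was not tested against D19. In WT colon 7 of 17 keratins tested were called higher than at D0 and 0 lower, where 7.07% of 18419 genes were higher and 3.25% lower. In KO colon 12 of 22 were higher and 1 (*Krt10*) lower, where 13.4% of 19031 genes were higher and 7.63% lower. *Krt7*, *Krt13*, *Krt14*, *Krt16*, *Krt36*, *Krt84* and *Krt87* were called in both genotypes, and *Krt6a*, *Krt6b*, *Krt15*, *Krt23* and *Krt90* in KO colon. Of these last, only *Krt23* was tested in WT colon with edgeR, and DESeq2 called *Krt6a*, *Krt6b* and *Krt90* higher there too. Without WT D80 mouse 581, 9 of 20 keratins were higher in WT colon, where 2029 of all genes were higher and 1153 lower. The median log2 fold change was 0.10 over the keratins tested in WT (0.05 over all genes) and 1.29 in KO colon (0.02 over all genes). By list, 1 of 6 simple, 1 of 2 basal, 1 of 2 suprabasal, 1 of 2 stress and 3 of 3 hair keratins tested rose in WT, and 2 of 6, 2 of 3, 1 of 3, 3 of 4 and 3 of 3 in KO colon. The other 23 of 26 hair-list members were too low to be tested in each genotype.

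*Krt14* stood at 0.961, 0.303, 0.403 and 0.500 CPM in WT colon at D0 and at 4.45, 4.92, 9.59 and 5.61 at D80. In KO colon it stood at 0.771, 1.12, 0.337 and 0.642 at D0 and at 14.1, 1.2, 12.1 and 6.38 at D80. The groups did not overlap in either genotype, although KO D80 mouse 535, at 1.2, lay just above the D0 range. The log2 fold change came to 3.47 for WT (SE 0.41, adjusted p = 0.0015) and to 3.52 for KO colon (SE 0.68, adjusted p = 0.00176). Its partner *Krt5* did not follow: it was at 0.127 to 0.448 CPM in WT and 0.190 to 0.467 in KO colon at D80, overlapping its D0 ranges of 0.218 to 0.448 and 0.0723 to 0.440. Per kilobase, *Krt14* was 24.1 times *Krt5* in WT and 34.2 times in KO colon at D80, against 1.80 and 3.08 times at D0.

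*Krt36* reached 11.6, 3.84, 14.7 and 7.03 CPM in WT colon at D80 and 26.9, 2.12, 13.9 and 15.8 in KO colon, above every D0 library (log2 fold change 4.33, SE 0.56, and 4.14, SE 0.65). *Krt13* reached 4, 1.40, 5.08 and 2.60 CPM in WT and 7.44, 0.793, 5.45 and 4.11 in KO colon (3.97, SE 0.62, and 4.16, SE 0.66). KO mouse 535 was the lowest D80 library of its group for *Krt13*, *Krt14* and *Krt36*. For *Krt84* the log2 fold change was 1.67 in WT (SE 0.29) and 2.78 in KO colon (SE 0.36), and for *Krt87* it was 1.56 (SE 0.29) and 1.59 (SE 0.24).

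*Krt16* held 2 counts in the WT D0 libraries together and 130 at D80, a ratio of 45.7 (95% counting interval 12.4 to 382, adjusted p = 0.00135), at 0.620, 0.976, 1.07 and 0.936 CPM. In KO colon it rose by 3.77 (SE 0.76) on the log2 scale to 1.92, 0.536, 0.982 and 0.522 CPM. *Krt6a* and *Krt6b*, the type II keratins of wounded skin, rose in KO colon by 2.87 (SE 0.68) and 2.67 (SE 0.64) to mean levels of 1.18 and 0.936 CPM, with mice 527 and 543 at 2.06 and 1.90 CPM of *Krt6a* and mice 535 and 544 at 0.300 and 0.460. In WT colon *Krt6a* was at 0.202 to 0.717 CPM at D80 and 0.0505 to 0.0896 at D0, too low to be tested. *Krt90* reached 7.71, 2.04, 5.70 and 2.92 CPM in KO colon, with 651 counts at D80 and 3 at D0 (ratio 204, 95% counting interval 69.4 to 990), and 0.338, 1.61, 4.36 and 2.5 CPM in WT colon, where it was not tested.

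Of the simple keratins, *Krt7* was the member that rose in both genotypes, to 165, 160, 221 and 146 CPM in WT (log2 fold change 1.21, SE 0.20) and 247, 131, 226 and 239 in KO colon (1.25, SE 0.21). *Krt23*, a type I keratin, rose in KO colon from 5.03 to 9.49 CPM at D0 to 28.9, 9.31, 26.4 and 25.6 (1.65, SE 0.33), mouse 535 staying within the D0 range, and stood at 5.35 to 21.3 CPM in WT colon, which overlapped D0. *Krt10*, the type I keratin of cornifying layers, fell by 1.12 on the log2 scale (SE 0.21) in KO colon, from 2.07 to 2.77 CPM at D0 to 0.796, 1.2, 1.17 and 1.26. *Krt15*, a type I keratin of basal cells, rose by 1.33 (SE 0.40) to a mean of 0.840 CPM with overlapping ranges. The *Krt10* call was lost without KO D80 mouse 527 (-0.99), and the *Krt15* call without that mouse (1) or without KO D0 mouse 852 (1.19). *Krt10* also overlaps the antisense gene *Gm11940*, and since no source used here says whether counting used strand, their reads may not be told apart.

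**Figure D2:**
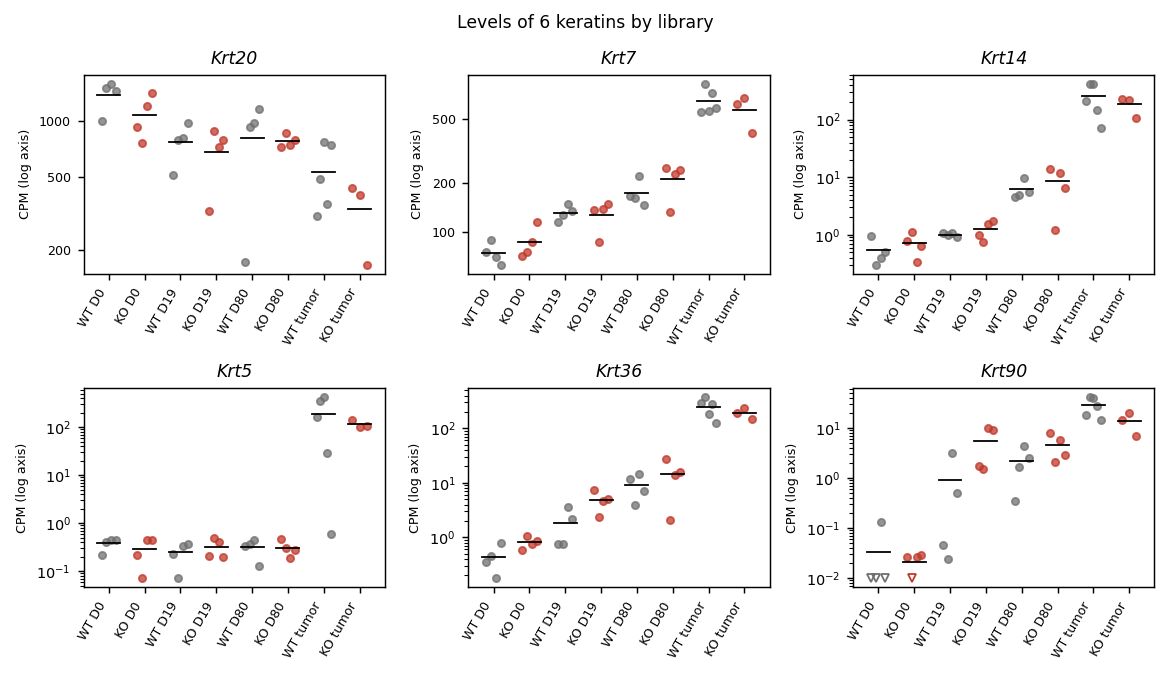
Level of 6 keratins (CPM, log axis) in each library by group, gray for WT and red for KO, with the group mean as a bar and libraries at 0 as open triangles at the foot of the axis. *Krt36*, *Krt14* and *Krt90* stand higher at D80 than at D0, *Krt5* reaches at most 0.494 CPM in colon and 28.7 CPM or more in every tumor but 1, at 0.606 CPM, and *Krt20* ranges from 167 to 764 CPM in tumors and from 760 to 1587 in untreated colon.

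Other cell types and gut positions moved between the same stages, and their part in the keratin changes was not tested. The 6 leukocyte markers were called higher at both stages in both genotypes (summed 7.62 to 19.1 CPM at D0, 63.8 to 187 in WT and 354 to 658 in KO colon at D19, and 63.1 to 131 and 122 to 280 at D80). Smooth muscle markers were called lower in 5, 3, 4 and 8 of 8 cases in WT D19, KO D19, WT D80 and KO D80 colon (summed 4933 to 13090 CPM at D0, 2964 to 6397 at D19 and 2290 to 4744 at D80). The 5 posterior gut genes summed to 45.7 to 97.9 CPM in WT colon at D0 and 156 to 205 at D19, with 4 of 5 called higher, and 2 of 3 tested were higher at D80. In KO colon, where 0 of 5 were called at either stage, they summed to 43.9 to 203 CPM at D0. *Hoxb13*, expressed toward the anal end, was at 7.37 to 55.1 CPM in WT D0 colon and at 67.8 to 184 in all D19 and D80 libraries. In KO D0 colon it was at 4 CPM in mouse 872 and at 127 to 154 in the other 3. The intestinal factor *Cdx2* was called lower at each stage in both genotypes.

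Of the squamous markers other than keratins, 0 of 6 tested genes were called at D19 in each genotype and at D80 in WT, and 1 of 7, *Pkp1*, was higher at D80 in KO colon, against 9.33%, 8.95%, 7.07% and 13.4% of all genes higher in the same comparisons. The list summed to 471 to 712 CPM in the D0 libraries of KO mice and 510 to 610 in those of WT mice, to 283 to 592 at D19 and to 371 to 595 at D80, with 2 or 3 of its 15 genes at 0 in each colon group. *Perp* (294 to 412 CPM) and *Sfn* (143 to 280 CPM) carried most of the D0 sums. *Trp63*, the transcription factor of squamous basal cells, was at 0 to 0.125 CPM in every colon library. *Grhl3*, an epithelial transcription factor of squamous barriers, was called higher at D80 in both genotypes (mean 3.23 against 0.236 CPM in WT and 5.18 against 0.543 in KO colon). Of the genes that anchor keratin filaments, 0 of 13 desmosome and plakin genes were called at D19 in each genotype and at D80 in WT colon and 2 of 13 were higher at D80 in KO colon, as were 3 of 8 hemidesmosome and basement membrane genes. The desmosome list summed to 447 CPM in KO D19 mouse 811, against 1683 to 1918 in the others of its group. In WT D80 mouse 581 it summed to 353 CPM, against 2170 to 2387. The hemidesmosome list was low in both mice too (478 and 461 CPM). These counts were not taken without the 2 libraries, so they do not settle a difference between genotypes.

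In tumors, keratins of squamous epithelium, wounds and hard epithelia rose beside the simple keratins of the colon. Against D80 colon of the same genotype, 17 of 28 keratins tested were called higher and 0 lower in WT tumors, where 8% of 19007 genes were higher and 13.5% lower. In KO tumors 18 of 29 were higher and 2 lower (*Krt20* and *Krt222*), where 10.3% of 19457 genes were higher and 16.4% lower. The 17 members were the same in both genotypes, and KO tumors added *Krt10*. The median log2 fold change over the keratins tested was 3.57 in WT (-0.06 over all genes) and 1.99 in KO tumors (0.01 over all genes). Of the 54 keratins 26 in WT and 25 in KO mice were too low to be tested. Members near 0 in D80 colon entered only where tumors were high, so these medians and counts do not describe the whole family. All 3 basal and all 4 stress keratins rose in both genotypes, as did 5 of the 9 hair keratins tested, 2 of 6 simple keratins, and 2 (WT) or 3 (KO) of 4 suprabasal keratins. Of the other keratins *Krt90* rose in both.

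Simple keratins remained the bulk. Keratins outside the simple list made up 0.306% to 1.03% of the summed keratin CPM as group means in colon and 12.8% in WT tumors (3.27% to 19.5%, n = 5) and 11.9% in KO tumors (9.99% to 15%, n = 3). *Krt8* stood at 3503, 4777, 4383, 4003 and 4933 CPM in WT tumors, beside 3094 to 4695 in WT D80 colon, and at 4100, 4238 and 1821 in KO tumors, beside 3243 to 3538. *Krt19* behaved alike, at 2082 to 2864 CPM in WT and 2638, 2578 and 1032 in KO tumors, the tumor of KO mouse 544 being the low one for both. *Krt18* stood at 703, 1113, 722, 830 and 724 CPM in WT tumors and 730, 807 and 650 in KO tumors, above the D80 ranges of 400 to 573 and 379 to 442, a change under 2-fold (log2 fold change 0.64, SE 0.24, and 0.76, SE 0.16).

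*Krt20* and *Krt7* went opposite ways. *Krt20* was at 434, 396 and 167 CPM in KO tumors against 718, 862, 739 and 783 in D80 colon (log2 fold change -1.27, SE 0.30, adjusted p = 0.0105), and without the tumor of mouse 544 the fall was under 2-fold (-0.94, adjusted p = 0.00095). In WT tumors it was at 305, 486, 764, 355 and 739 CPM against 174, 930, 977 and 1156, and was called lower only when D80 mouse 581, the library at 174, was left out (-0.71 with it, -1.05 without, adjusted p = 0.0182). *Krt7* rose to 554, 826, 556, 717 and 580 CPM in WT (1.77, SE 0.23) and to 621, 673 and 408 in KO tumors (1.40, SE 0.26), above every D80 library. *Krt23* rose to 81.1, 127, 91.8, 146 and 101 CPM in WT (3.10, SE 0.39) and to 84.6, 113 and 74.8 in KO tumors (1.99, SE 0.35).

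The basal keratins rose in both genotypes. *Krt5* went from 0.338, 0.361, 0.448 and 0.127 CPM in WT D80 colon to 162, 346, 431, 28.7 and 0.606 in WT tumors (mice 534, 541, 542, 579 and 555). In KO mice it went from 0.467, 0.300, 0.190 and 0.276 to 143, 99.8 and 107. All tumors but that of WT mouse 555, which barely left the colon range, were far above colon. For WT tumors the log2 fold change was 9.14 with an SE of 1.71 (adjusted p = 0.00349), and for KO tumors 8.52 with an SE of 0.29 (adjusted p = 1.89e-05). *Krt14* was more even, at 212, 418, 422, 148 and 72.4 CPM in WT (5.25, SE 0.61) and 231, 220 and 106 in KO tumors (4.42, SE 0.71), with mouse 555 again the lowest but well above the 4.45 to 9.59 CPM of WT D80 colon. With *Krt5* present, the ratio of the group means of *Krt14* to *Krt5* per kilobase was 1.64 in WT and 1.99 in KO tumors. The WT ratio does not describe the tumors of mice 579 and 555, where *Krt5* stood at 28.7 and 0.606 CPM and *Krt14* at 148 and 72.4. *Krt15* rose to 21.9, 44.4, 18.9, 12.4 and 8.79 CPM in WT (5.17, SE 0.67) and to 35.9, 24.1 and 58.7 in KO tumors (5.58, SE 0.48).

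The upper-layer pair rose together. *Krt13* reached 144, 146, 278, 57.2 and 26.5 CPM in WT tumors (log2 fold change 5.19, SE 0.76) and 114, 84.4 and 76.0 in KO tumors (4.35, SE 0.60). *Krt4*, its type II partner, reached 13.1, 24.4, 18.2, 8.77 and 5.35 CPM in WT (4.90, SE 0.74) and 6.49, 9.65 and 9.82 in KO tumors (4.51, SE 0.37). Per kilobase *Krt13* was 10.9 and 12.4 times *Krt4* in WT and KO tumors. *Krt10* was at 2.54, 2.00 and 4.32 CPM in KO tumors against 0.796 to 1.26 in D80 colon (1.42, SE 0.34), and its call was lost without the tumor of mouse 544 (0.99, adjusted p = 0.0141). *Krt1*, the partner of *Krt10* in cornified epidermis, stayed at 0 to 0.179 CPM in the tumors.

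All 4 stress keratins rose. *Krt6a* went from 0.202 to 0.717 CPM in WT D80 colon to 154, 213, 333, 29.7 and 3.84 in WT tumors (log2 fold change 8.22, SE 1.32) and from 0.300 to 2.06 to 97.9, 91.5 and 72.4 in KO tumors (6.20, SE 0.62). *Krt6b* followed it closely (8.20, SE 1.39, and 6.13, SE 0.56). *Krt16* rose to 18.8, 34.9, 34.8, 22.9 and 5.10 CPM in WT (4.56, SE 0.56) and 18.6, 17.8 and 9.97 in KO tumors (3.94, SE 0.45), and *Krt17* to 47.6, 99.1, 110, 24.6 and 10.2 CPM in WT (2.61, SE 0.67), overlapping the 4.96 to 12.2 of D80 colon, and 42.8, 42.7 and 45.8 in KO tumors (2.05, SE 0.25). WT mouse 555 had the lowest tumor level of each of the 4.

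The counts of *Krt6a* and *Krt6b* cannot be fully separated. These paralogs share 56% and 39.6% of their 75-nt windows with other genes (*Krt16* 28.9%), and their coding sequences share an unbroken run of 280 bases. A read length of that run, from GRCm38 on the minus strand at chr15:101694039-101694113 (*Krt6a*, exon sequence inside the coding region) and chr15:101680014-101680088 (*Krt6b*), is shown because it is the same letter for letter in both genes.
Krt6a: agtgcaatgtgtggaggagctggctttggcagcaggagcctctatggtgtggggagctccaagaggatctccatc
Krt6b: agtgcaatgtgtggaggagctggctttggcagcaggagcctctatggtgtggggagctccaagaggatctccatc

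The hard keratins *Krt36* and *Krt84* rose in all 8 tumors, the one of mouse 555 included. *Krt36* reached 289, 378, 182, 279 and 124 CPM in WT (log2 fold change 4.62, SE 0.51) and 193, 235 and 147 in KO tumors (3.69, SE 0.66), which put it next after *Krt8*, *Krt19*, *Krt18* and *Krt20* per kilobase in both genotypes (150 and 115 CPM per kb), in ranges that overlapped those of *Krt20* and *Krt14*. *Krt84* reached 57.7, 39.4, 50.8, 116 and 46.8 CPM in WT (3.60, SE 0.35) and 29.4, 47.9 and 14.1 in KO tumors (2.40, SE 0.39). *Krt35*, a type I keratin of the hair shaft, rose from at most 0.0759 CPM to 2.56, 9.13, 2.84, 6.94 and 1.16 in WT (6.51, SE 0.86) and from at most 0.215 to 1.83, 4.45 and 4.43 in KO tumors (5.36, SE 0.79).

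Lower members of the list rose as well. *Krt32*, of the hair cuticle, held 161 counts in WT tumors and 1 in WT D80 colon (ratio 119, 95% counting interval 21.1 to 4730, adjusted p = 0.000331) and rose by 4.14 on the log2 scale (SE 0.71) in KO tumors. *Krt75*, of the companion layer of the follicle, held 371 counts in WT tumors and 3 in D80 colon (ratio 91.4, 31 to 445, adjusted p = 0.0083) and 131 and 3 in KO mice (ratio 62.9, 21.1 to 309, adjusted p = 0.000284), with mouse 555 at 0.0253 CPM inside the colon range. *Krt87*, at 10.8 to 22.7 CPM in 4 WT tumors and 5.73 in that of mouse 555, was not called (1.01, SE 0.36, adjusted p = 0.0612), and was called with DESeq2 (1.02) and without D80 mouse 581 (1.16) or tumor 555 (1.2). *Krt90* rose to 18.1, 41.3, 38.5, 27.8 and 14.2 CPM in WT (3.54, SE 0.62) and to 14.3, 19.6 and 7 in KO tumors, where the ranges overlapped D80 colon (1.53, SE 0.47, adjusted p = 0.0296). The KO call was lost without any of D80 mice 535 (1.29), 543 (1.65) and 544 (1.36) and tumors 527 (1.51) and 543 (1.22), and with all 32 libraries in a common fit (edgeR adjusted p = 0.123). *Krt222* fell by 2.55 (SE 0.54) in KO tumors, from 0.412 to 1.26 CPM in D80 colon to 0.0818, 0.160 and 0.143.

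**Figure D3:**
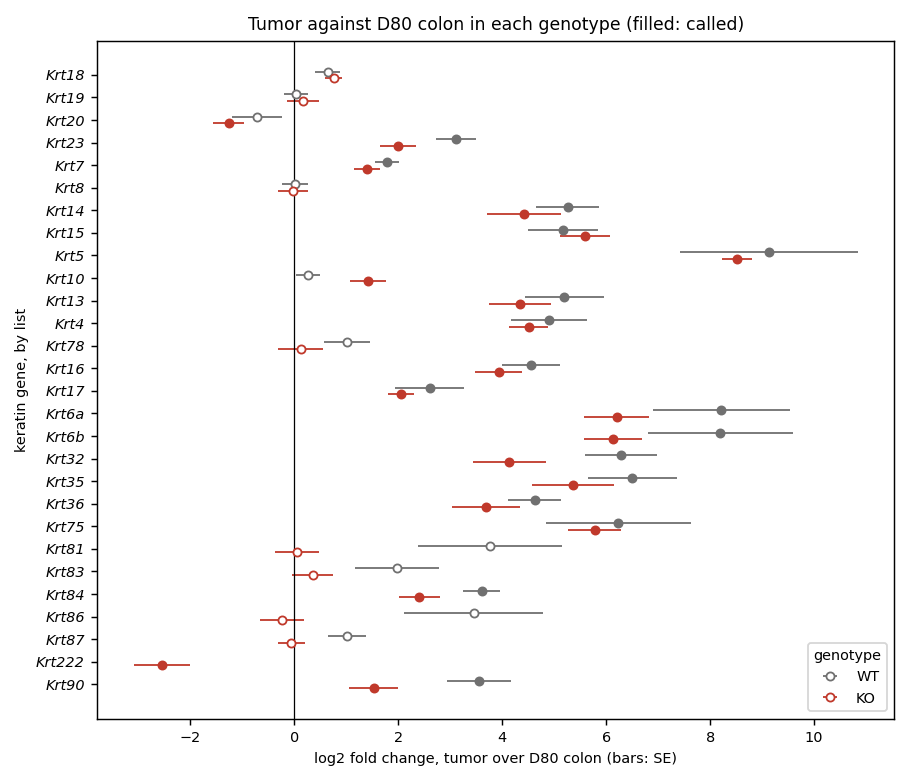
Log2 fold change of tumor against D80 colon (horizontal axis, bars are SE) for the described keratins tested in either genotype (vertical axis), WT in gray and KO in red, filled where called. The points of 17 keratins are filled to the right of 0 in both genotypes, up to 9.14 for *Krt5* in WT tumors.

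**Figure D4:**
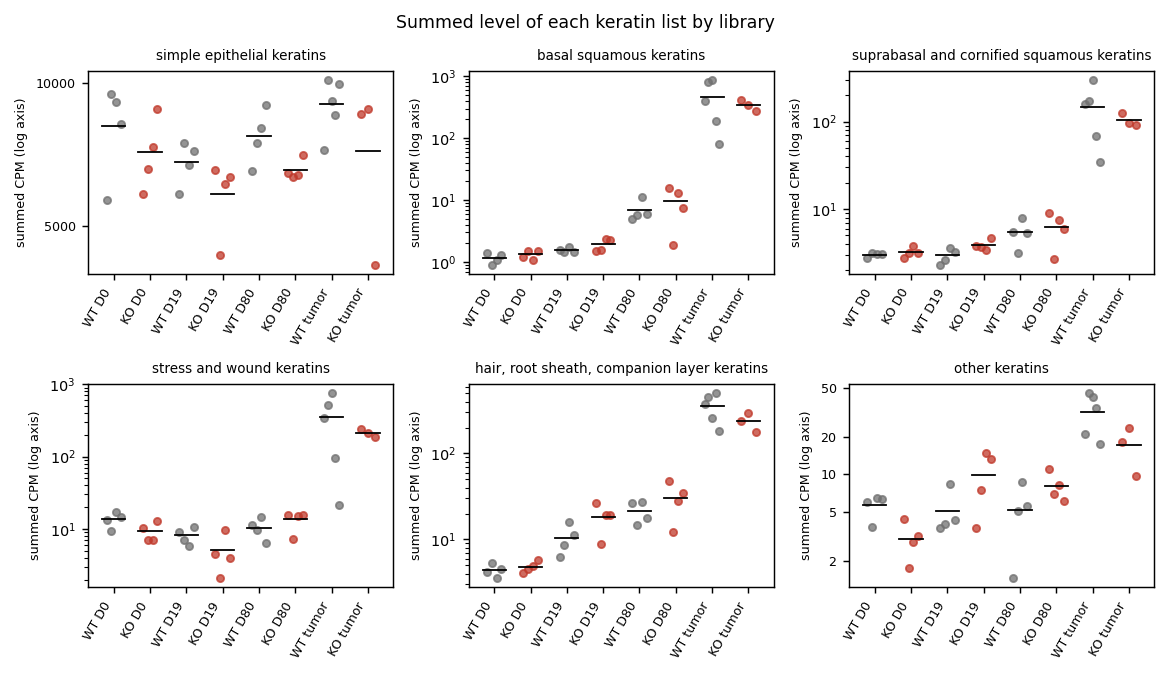
Summed CPM of the members of each of 6 keratin lists (log axis) in every library by group, gray for WT and red for KO, with the group mean as a bar. The basal list rises from means of 7 and 9.58 CPM in WT and KO D80 colon to 469 and 342 in tumors, while the simple list stays between 4152 and 10140 CPM in tumors.

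Several hair shaft keratins were high in a single library. In the tumor of WT mouse 579, 6 keratins were more than 10 times their level in any other of the 32 libraries, and 11 of the members with 1 CPM or more had their highest level there. *Krt33a* was at 6.88 CPM (136 times the next library), *Krt31* at 9.21 (47.3 times) and *Krt34* at 15.2 (42.2 times), all type I keratins of the hair shaft. *Krt81* was at 16.9 (23.8 times), *Krt33b* at 4.92 (20.5 times) and *Krt86* at 15 CPM (16.7 times). In that library *Krt33a* rested on 263 counts and *Krt81* on 645. *Krt81* and *Krt86* in the other 4 WT tumors were at 0.253 to 0.634 and 0.202 to 0.898 CPM, and *Krt81*, *Krt83* and *Krt86* passed no threshold in WT tumors. Of the non-keratin hair genes *Krtap3-1* was at 5.55 CPM there and at most 1 in the other libraries, *Krtap4-1* at 1.49 and at 0 in the other 31, and *Hoxc13* at 0.0262, while *Msx2* was at 0.34 and at most 0.0899 elsewhere. *Tchh* was at 2.04 CPM there against at most 1.77 in another library and *Dlx3* at 13.4 against at most 10.96, and *Padi3* was at 0.576, below its 4.84 in the tumor of WT mouse 542. In the same tumor *Krt5* (28.7 CPM) and *Krt13* (57.2) were lower than in tumors 534, 541 and 542. Skin or hair carried over with the sample was not tested.

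**Figure D5:**
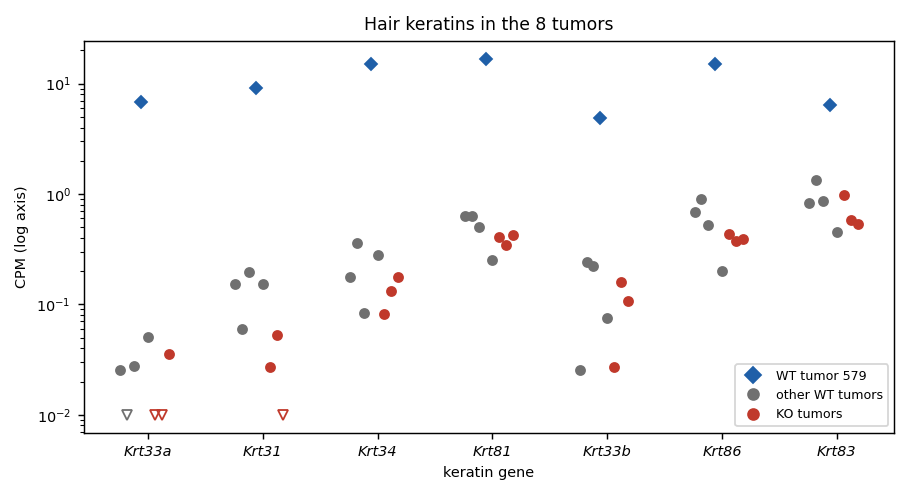
Level of 7 hair keratins (CPM, log axis) in the 8 tumors, with the tumor of WT mouse 579 as a blue diamond and the other tumors as circles. For 6 of the keratins the diamond is over 10 times above the next library, and for *Krt83* it is 4.74 times above it.

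*Trp63* was at 7.33, 7.70, 20.3, 1.15 and 0.101 CPM in WT tumors and 5.15, 3.25 and 3.96 in KO tumors, called higher in both, and its lowest tumors, of mice 555 and 579, were those lowest for *Krt5*. Of the desmosome and plakin genes 5 of 15 rose in WT and 2 of 15 in KO tumors, where 8% and 10.3% of all genes did, among them *Dsg3*, the desmoglein of squamous cells, with means of 22.9 and 13.2 CPM against 1.16 and 1.89 in D80 colon. The whole desmosome list summed to 353 CPM in WT D80 mouse 581, against 2170 to 2387 in the others of its group. In the tumor of KO mouse 544 it summed to 1133 CPM, against 2259 and 2435. These counts were not taken without either library. Of 8 hemidesmosome and basement membrane genes, WT tumors had 3 higher and 1 lower and KO tumors 2 higher and 1 lower, with *Col17a1*, which anchors basal cells, at means of 15.8 and 10.6 CPM against 0.189 and 0.687. Of 12 keratin gene regulators tested, WT tumors had 5 higher and 2 lower and KO tumors 5 higher and 3 lower, *Cdx2* falling to means of 14.1 and 11.2 CPM from 85.0 and 89.4. Of 9 other intermediate filament genes, WT tumors had 1 higher and 4 lower and KO tumors 4 lower, *Des* and *Synm* of muscle among those that fell.

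The make-up of the tissue differed between tumor and colon as well, and its part in the keratin changes was not tested. Smooth muscle markers fell in 8 of 8 cases in both genotypes (summed 3677 to 4744 CPM in WT D80 colon and 185 to 780 in tumors, 2290 to 3603 and 173 to 274 in KO). The non-keratin squamous list rose in 9 of 12 tested genes in WT and 5 of 11 in KO tumors (summed 615 to 984 and 596 to 739 CPM, with counts for every gene, against 2 of 15 genes at 0 in D80 colon and sums of 407 to 595 and 371 to 470 CPM), of which *Dsg3*, *Dsc3* and *Pkp1* are also in the desmosome list and *Trp63* among the regulators. *Perp* and *Sfn* carried most of these tumor sums, at 212 to 360 and 159 to 370 CPM. Colon epithelium markers fell in 5 and 4 of 9 cases (summed 10940 to 17000 CPM in WT D80 colon and 5280 to 8250 in tumors, 8999 to 12390 and 4818 to 6720 in KO). The 4 urothelial markers, which could mark bladder, summed to 2.89 to 8.89 CPM in tumors and 5.57 to 16.1 in D80 colon, with 1 higher and 2 lower of 3 tested in WT and 2 and 2 of 4 in KO. The hair genes summed to 5.36 to 23.5 CPM in tumors and 0.676 to 2.5 in D80 colon, with 2 of 4 tested higher in WT and 2 higher and 1 lower in KO. *Dlx3* carried much of the tumor sum, at 3.53 to 13.4 CPM against 0.113 to 1.1 in D80 colon. *Padi3* was at 0.354 to 4.84 CPM in tumors and 0 to 0.184 in D80 colon. *Krtap3-1* was at 0 to 0.203 CPM in every tumor but that of WT mouse 579, against 0.379 to 0.772 in D80 colon. Leukocyte markers were higher in 2 and lower in 1 of 6 cases in WT and lower in 4 in KO tumors (summed 79.2 to 251 and 161 to 447 CPM, against 63.1 to 131 and 122 to 280). *S100a8* and *S100a9* carried much of these tumor sums. *S100a8* was at 18.8 to 90.5 CPM in WT and 49.9 to 167 in KO tumors, and *S100a9* at 15.7 to 125 and 84.3 to 255.5. In each genotype the log2 fold change was positive in 2 of the 6 leukocyte markers and negative in 4. Posterior gut genes rose in 3 of 5 cases in each genotype, *Hoxd12* and *Hoxd11* among them (summed 290 to 478 and 296 to 411 CPM, against 115 to 227 and 109 to 162 in D80 colon), while *Hoxb13* was not called, at means of 201 and 182 CPM against 132 and 92.8.

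Few keratins differed between genotypes beyond the spread of the mice. In colon, edgeR called 0 of 15 keratins tested at D0, 0 of 22 at D19 and 0 of 24 at D80 in KO against WT, higher or lower, where 0% of all genes were called at each stage. At an unadjusted p under 0.05, 4 keratins were lower in KO colon at D0 (*Krt17*, *Krt80*, *Krt222* and *Krt84*). At D19, 2 were higher (*Krt36* and *Krt84*), and at D80 there were 0. These were 26.7%, 9.09% and 0% of the keratins tested, against 9.63%, 11.3% and 5.55% of all genes under that p in either direction. Without WT D80 mouse 581 there were 5 of 26 at D80. The D0 count was 0 without WT mouse 920 and 5 without WT mouse 851. The D19 count was 0 without WT mouse 685 or 686 and 4 without WT mouse 805. DESeq2 called 0 keratins at each stage, while of all genes it called 48, 311 and 38 at D0, D19 and D80. *Krt36* was at 0.745 to 3.65 CPM in WT and 2.39 to 7.49 in KO colon at D19, and *Krt84* at 0.745 to 3.85 and 1.54 to 7.49, overlapping ranges. The leukocyte sum of KO colon was above that of WT colon in every D19 library (354 to 658 against 63.8 to 187 CPM), and its part was not tested. Most of the KO sum came from *S100a8* (94.4 to 190 CPM, against 0.977 to 40.8 in WT) and *S100a9* (147 to 330 against 0.558 to 67.8). Only these 2 of the 6 markers did not overlap between genotypes at D19.

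In tumors 0 of 29 keratins tested were higher and 1 was lower in KO mice, where 0.264% of 18961 genes were higher and 0.0422% lower. The keratin was *Krt78*, of squamous upper layers, at 0.507, 0.869, 0.612, 0.707 and 0.707 CPM in WT and 0.409, 0.320 and 0.214 in KO tumors. Its log2 fold change was -1.06 with an SE of 0.33, and edgeR's quasi-likelihood test over all genes gave an adjusted p = 0.699 from a nominal value of 0.00946. That call was lost with DESeq2 (0 called), with no filter on low counts, and without WT tumor 541 (-0.95), 542 (-1.09), 579 (-1.05) or 555 (-1.05) or KO tumor 527 (-1.27), 543 (-1.03) or 544 (-0.91). At an unadjusted p under 0.05 there were 5 keratins, *Krt78*, *Krt34*, *Krt84* and *Krt90* lower and *Krt10* higher. This was 17.2% of the keratins tested against 6.61% of all genes. Without the tumor of KO mouse 544, 1 of 31 keratins tested lay under that p, and the share of all genes was not taken for that fit. With all tumors in, the sign was negative in 26 of the 29, with a median of -0.55 (-0.02 over all genes). Keratins within a tumor are not independent of each other. With the number that precedes the mouse number in the labels as a covariate, 6 keratins were called lower (of all genes 47 higher and 134 lower). The meaning of that number is not stated. Only number 76 occurred in tumors of both genotypes, so this fit contrasted WT tumors 541 and 542 with KO tumors 543 and 544. With all 32 libraries in a common fit 3 keratins were called lower (of all genes 132 higher and 89 lower). *Krt78* was called in neither fit.

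The rise from D80 colon to tumor was also compared between genotypes. As an interaction of genotype and tissue, edgeR called 0 of 30 keratins, where 0% of all 20391 genes were called higher or lower. At an unadjusted p under 0.05 there were 6, *Krt10* with a larger rise in KO tumors and *Krt81*, *Krt84*, *Krt86*, *Krt87* and *Krt90* with a smaller one, which was 20% of the keratins against 11.7% of all genes, and DESeq2 called 0. *Krt81* and *Krt86* are keratins of the WT tumor of mouse 579 described above.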

How the data were processed

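Total RNA was sequenced from whole colon and tumors in 32 libraries, grouped by genotype and stage from the labels. Per the labels and the methods of the study, the authors used FastQC 0.11.5 for quality control of 75-nt single-end reads, STAR for alignment to mm10 and Subread for counting on a GENCODE annotation, and deposited the raw counts per gene. Whether counting used strand is not given in the sources used here. Genes that share sequence can therefore have lost or split reads.

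Counts were tested with edgeR 4.0.16 (R 4.3.3, limma 3.58.1): TMM factors, filterByExpr, the quasi-likelihood test on the groups compared, and Benjamini-Hochberg adjustment over all genes tested. SE is the size of the log2 fold change divided by the square root of F. CPM used TMM factors over all 32 libraries, and values per kilobase used merged exons of the gene. Libraries held 18951121 to 47623288 counts, so levels under 0.1 CPM rest on few counts, and intervals cover counting error only. The procedure was tested on simulated data first.

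The alternatives were DESeq2 1.42.0, other size factors, other count filters, a fit of all 32 libraries, leaving libraries out, a label covariate and the mouse as a block. WT mice 541, 542 and 555 and KO mice 527, 543 and 544 gave both a D80 colon and a tumor library, so same-numbered samples come from the same animal. Their deviations from the group means correlated over 21468 genes at r = 0.0344, 0.0788 and 0.198 in WT and 0.0824, 0.0584 and 0.124 in KO mice. The highest correlation between any 2 libraries was 0.9899 and 0 pairs were identical.

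The members, gene lists and tests were chosen with earlier results of these data known. Members at 10 CPM or more in a group or called in a comparison were described. Of the partner and marker genes, *Trp63*, *Cdx2*, *Hoxb13* and *Epcam* were named by rule and the others after their values were seen. D19 and D80 share the D0 libraries, and tumors share the D80 libraries with the D80 comparisons.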

Additional observations from a re-analysis of the deposited data

Results flagged for a closer look

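Over the 19 keratins at 10 CPM or more in a group, 133 sets of 4 or 5 libraries were examined, and 11 (8.27%) held a library set apart by a gap that exceeded Dixon's critical value, where chance gives about 1 in 20. No explanation was tested.

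In untreated colon these values were close to the limit of counting. *Krt15* was at 0.344 CPM in WT mouse 927 and at 0.202 to 0.224 in the other 3. *Krt4* was at 0.0505 CPM in WT mouse 918 and *Krt90* at 0.134 in WT mouse 920, with the rest of each group at 0. *Krt90* was at 0 in KO mouse 853 and at 0.0259 to 0.0292 in the others.

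At D19, the level of *Krt8*, the main type II keratin of simple epithelia, was 2080 CPM in KO mouse 813 against 3140 to 3270 in the others. *Krt90* was at 3.11 CPM in WT mouse 805 and at 0.0239 to 0.502 in the others. In the same WT mouse *Krt36* (3.65 CPM), *Krt84* (3.85 CPM) and *Krt13* (2.10 CPM) were the highest of the group too.

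At D80, KO mouse 535 was low for *Krt23* (9.31 CPM against 25.6 to 28.9) and for *Krt18* (379 CPM against 436 to 442). *Krt8* reached 3540 CPM in KO mouse 544 against 3240 to 3290 in the others, and *Krt84* at 3.88 CPM in WT mouse 541 and at 4.90 to 4.93 in the others. In tumors, *Krt84* was at 116 CPM in WT mouse 579, whose tumor also held the hair keratins, and at 39.4 to 57.7 in the other 4.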

How the results depend on the processing

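No called keratin changed direction under any alternative run. Requiring 10 counts in each library left 1 keratin called in WT D19 (4 with the filter used), 3 in KO D19 (8), 3 in WT D80 (7), 7 in KO D80 (13), 8 in WT tumors (17) and 0 between KO and WT tumors (1), since fewer keratins were tested. Fewer of all genes were called with it as well. It called 955 higher and 547 lower in WT D19, 1078 and 366 in KO D19 and 649 and 378 in WT D80. Between KO and WT tumors it called 35 higher and 2 lower. With no filter on low counts 9 of 46 were called in WT D19 (of all genes 2234 higher and 869 lower) and 12 of 45 in WT D80 (1559 and 607). DESeq2, which tested more keratins, called 14 of 45 in WT D80, where it called 2851 of all genes. Between KO and WT tumors DESeq2 called 0 keratins and 217 of all genes. The fit of all 32 libraries called 3 keratins (of all genes 132 higher and 89 lower), and the fit without the 3 libraries of differing make-up 0 (13 and 4). The fit with the label number as a covariate, which contrasts WT tumors 541 and 542 with KO tumors 543 and 544, called 6 (47 and 134). None of them was *Krt78*, and the cause was not tested.

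Leaving out 1 library at a time gave 0 to 1 keratins between KO and WT tumors (without WT tumor 541 or KO tumor 543 a keratin higher in KO in place of *Krt78*), 4 to 5 in WT D19, 4 to 8 in KO D19, 7 to 9 in WT D80, 12 to 17 in KO D80, 16 to 21 in WT tumors and 18 to 20 in KO tumors, and 0 between genotypes in colon and in the interaction. Of all genes these fits called 1663 to 1919 higher in WT D19, 1463 to 2288 in KO D19 and 931 to 2029 in WT D80. Between KO and WT tumors they called 13 to 464 higher. The counts over all genes of the remaining fits are not given here. With the mouse as a replicate block, over the 3 mice per genotype with both samples, 18 keratins were called in WT tumors, 20 in KO tumors and 0 in the interaction, against 17, 19 and 0 for the same mice unpaired, a fit chosen after seeing the data. The block fit shared 16 of the 17 keratins called in WT tumors and 20 of the 20 in KO tumors. Among the 74 keratin comparisons that were called or that the report gives with a test, 587 fits with a library left out kept 550 calls as they were, lost 34 and gained 3, and keratins beyond these were gained too, since without KO D0 mouse 853 only 13 of 17 calls in KO D80 were shared, and without D80 mouse 581 only 17 of 21 in WT tumors. Scaling by library totals alone moved 6 of 224 group levels by more than their SD, to 0.846 to 1.13 times the level given. Depth limited the 11 members with fewer than 10 counts in all.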

Other observations

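A few keratins at very low levels rose outside the genes tested with edgeR. *Krt4*, the type II partner of *Krt13*, was at 0 to 0.0505 CPM in WT and 0 to 0.0292 in KO colon at D0 and at 0.0563, 0.233, 1.10 and 0.278 CPM in WT and 0.494, 0.214, 0.570 and 0.246 in KO colon at D80. The groups did not overlap, and DESeq2 called it higher at D80 in both genotypes, but its counts were too low to pass the filter. In WT D80 colon DESeq2 also called *Krt6a*, *Krt6b*, *Krt27*, *Krt83* and *Krt90* higher and *Krt222* lower. Within the pairs, *Krt36* per kilobase was 0.485 times *Krt84* in WT colon at D0, 3.15 times at D80 and 6.37 times in tumors, and 1.61, 4.14 and 9.94 times in KO mice.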
